A study of Homo sapiens with 32 samples.

Results

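Polysome loading of untreated MDA-MB-231 cells was read from 4 of the 32 libraries of the series, chosen by their labels alone as the polysomal (P) and total (T) libraries of normoxic (N) MDA-MB-231. MDA-MB-231 is a metastatic triple-negative breast carcinoma line. The 4 libraries came from cultures numbered 65 and 81, each number shared by 1 T and 1 P title, and the control cells had received the DMSO vehicle. Cells were lysed with cycloheximide, which holds ribosomes on the mRNA, and the lysate was cleared by a spin and its supernatant run on a sucrose gradient. P was the RNA that sedimented with polysomes, and T was the RNA of the same kind of culture without fractionation. The study's discussion has the polysome fractions begin at 2 ribosomes, while its results count monosomes and oligosomes as free mRNA. For comparison, 3 other sets of 4 libraries were used: normoxic MCF10A, a non-tumourigenic mammary line (cultures 37 and 41), MDA-MB-231 under 0.5% O2 for 24 hours (H, cultures 66 and 82), and normoxic MDA-MB-231 given the mTOR kinase inhibitor PP242 at 2.5 µM for 3 hours (NPP, cultures 67 and 83). The fits also took in the MDA-MB-231 libraries given both hypoxia and PP242. The fit across the lines further took in the MCF10A libraries under hypoxia, PP242 or both. Nothing in the labels says whether the replicates were separate thaws or dishes of the same day, so p-values measure the spread between these libraries.

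An mRNA being translated carries several ribosomes at once and sinks far into the gradient, whereas free mRNA and mRNA carrying a single ribosome stay nearer the top. RNA held in the nucleus is largely removed with the nuclei before the gradient. Very short coding regions have room for few ribosomes. Ribosomal protein mRNAs begin with a run of pyrimidines, the terminal oligopyrimidine (TOP) tract, through which mTOR controls their recruitment. Ferritin mRNAs carry a hairpin in the 5′ untranslated region (5′ UTR), the iron-responsive element (IRE), to which iron regulatory proteins bind and block the start of translation when iron is low. Transcripts of the mitochondrial genome are translated inside mitochondria on a separate set of ribosomes.

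The T libraries held 27262404 (culture 65) and 18340916 counts (culture 81), and the P libraries 24478793 and 32479393. Of the 60554 genes in the table, 16995 passed the filter on low counts, 13510 of them protein-coding. Levels are given as CPM, the count relative to the TMM-scaled size of its library, and polysome loading as the log2 fold change (log2FC) of P over T with its standard error. Loading is relative: without a spike-in, a value of 0 marks an mRNA present in P in the same proportion as the bulk of the mRNA, not an absolute share of ribosome-bound molecules. By library totals, the markers of the line vimentin (VIM), CD44, AXL and CAV1 lay between 414 and 3486 CPM in T. CAV1 and LOX, also on that list, do not mark the line against MCF10A, where CAV1 was at 2221 and 2183 CPM and LOX at 45.7 and 40.5 CPM in T, against 25.3 and 28.5 CPM of LOX in MDA-MB-231. The oestrogen and progesterone receptors ESR1 and PGR stayed below 1 CPM, the third receptor ERBB2 was at 38.7 and 33 CPM in T against 106.2 and 128.3 CPM in MCF10A, and the keratins KRT5 and KRT14 stayed below 1 CPM too, against at least 1288 and 496 CPM in T of MCF10A. SPARC, also on the list of markers of the line, went against the label at 0.22 and 0.763 CPM in T, against 121.4 and 134.8 CPM in T of MCF10A. The 10 epithelial markers summed to between 174.6 and 261.1 CPM in the 4 libraries, with SFN the most abundant, and KRT5 was at 0 in 3 of them. Only some of these 10 were higher in MCF10A. EPCAM (11.6 and 12.3 CPM), LAMA3 (29.8 and 14.6 CPM) and CLDN1 (3.71 and 2.29 CPM) were higher in T of MDA-MB-231 than in T of MCF10A, where they were at 0.169 and 0.342, at 6.22 and 5.66 and at 0.394 and 0.502 CPM, and CDH1 and TP63 were below 1 CPM in T of both lines. The near absence of CDH1, EPCAM and TP63 goes against the MCF10A label, which KRT5 and KRT14 fit, so the comparison line is called MCF10A by its label.

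Loading was asymmetric. With edgeR's quasi-likelihood test, 1045 genes (6.15% of those tested) were higher in P and 1642 genes (9.66%) were lower at an adjusted p below 0.05. The genes higher in P moved little, with a median log2FC of 0.60, a 1.52-fold difference, and only 25 of them reached a 2-fold difference. The genes lower in P moved further, with a median log2FC of -1.16, and 1011 of them reached 2-fold and 242 reached 4-fold. Much of this asymmetry lay in rare genes: at 10 CPM or more, 1003 genes were higher and 806 lower, the lower ones with a median of -0.90, of which 334 reached 2-fold and 44 reached 4-fold. Of protein-coding genes at any level, 1021 were higher and 1085 lower. The median over all genes tested was -0.04, and it was 0.02 with RLE scaling and -0.15 with library totals, a shift of -0.115 relative to TMM. The share of called genes that were higher in P was 38.9% with TMM, 49.3% with RLE and 25.4% with library totals. Higher genes outnumbered lower ones with DESeq2 (1793 against 1425), with an offset for transcript length (1997 against 1532) and with a filter of at least 1 read (1928 against 1550), so the balance of the counts depends on the setting and a small difference from 0 has no fixed sign.

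The count of higher genes rested on single libraries more than the count of lower genes did. It was 78 without the T library of culture 65, 160 without the P library of culture 65, 339 without the T library of culture 81 and stayed within 1.5 times of the full count without the P library of culture 81. The lower genes numbered 832, 835, 720 and 695 in the same order. The filter admits further genes when a group holds 1 library, and of the 832 lower genes 728 were among the 16995 tested with all libraries. Calls survived all 4 omissions for 37 of the higher and 435 of the lower genes. Between culture 65 and culture 81 the P to T differences had a Spearman rho of 0.563 over all 16995 genes and of 0.686 over the 9429 genes of at least 10 CPM, a description across genes, which are not independent replicates.

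**Figure D1:**
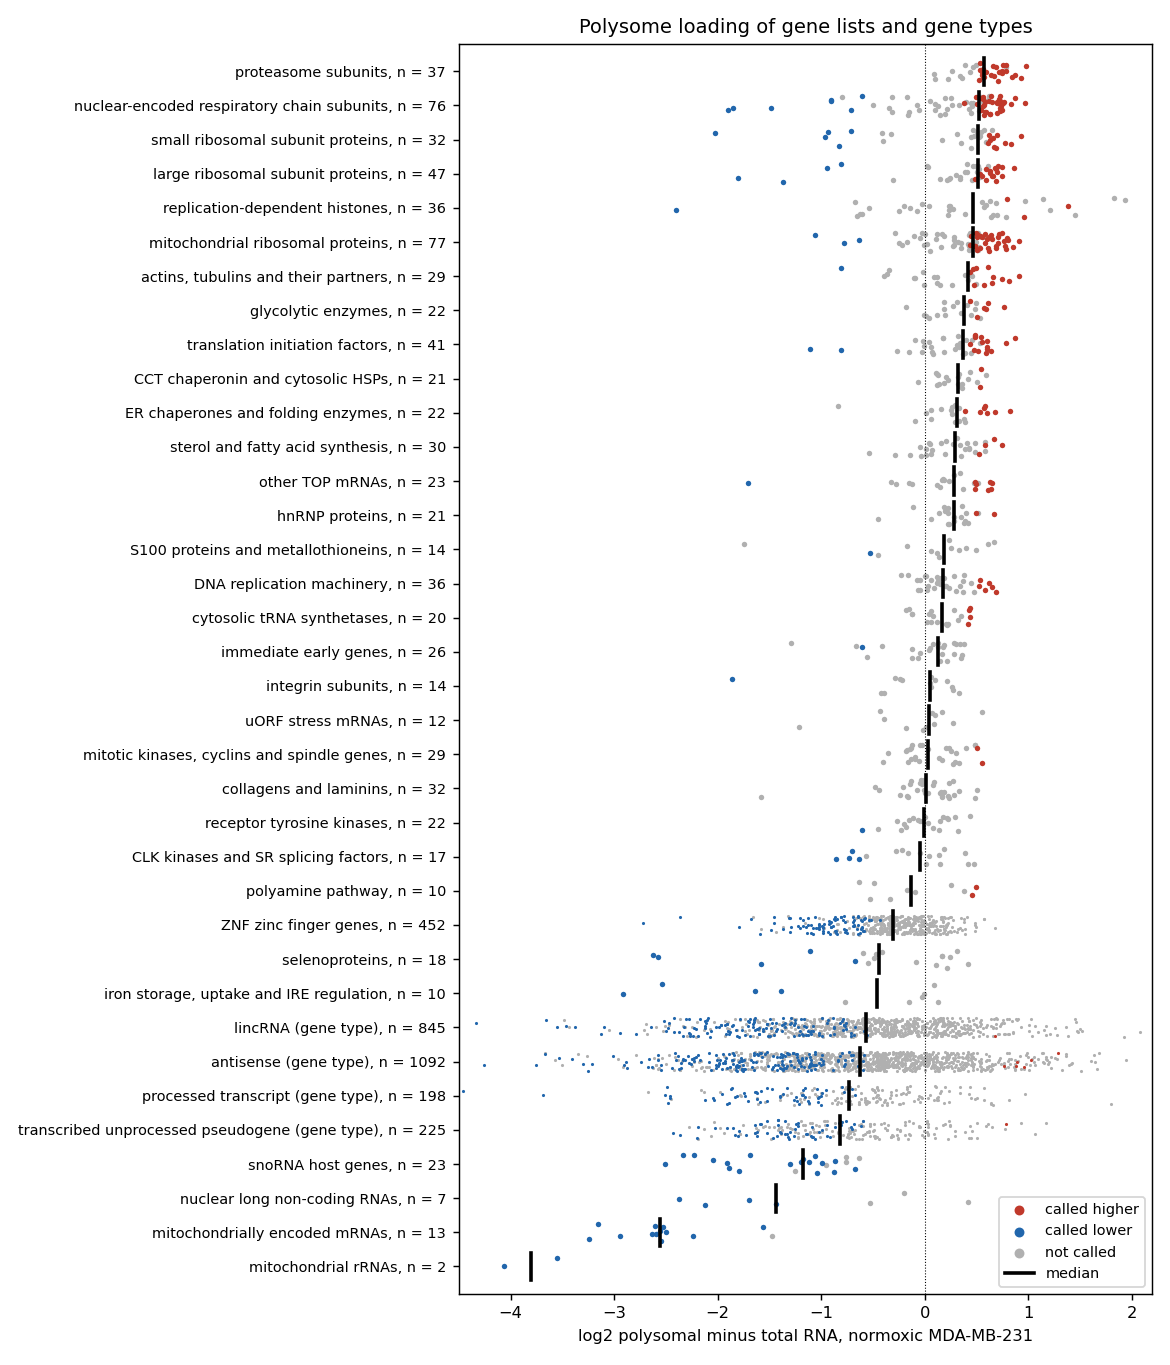
Polysome loading of each gene list and of 4 gene types in normoxic MDA-MB-231. Each point is 1 tested gene at its log2 P minus T, red where called higher, blue where called lower and grey where not called, and the black bar is the median of the class, whose n is given beside its name. The classes run from mitochondrial rRNAs at a median of -3.81 to proteasome subunits at 0.58, and 36 points lie outside the range from -4.5 to 2.2 that is drawn.

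Transcripts of the mitochondrial genome had the lowest median loading of all lists. The lysate was cleared by a spin before the gradient, and at which step these transcripts were lost was not tested. They made up 5.15% of the counts of T in culture 65 (95% exact binomial interval 5.14% to 5.16%) and 5.75% in culture 81 (5.74% to 5.76%). In P they made up 0.563% (0.560% to 0.566%) and 1.01% (1.01% to 1.02%), intervals that cover counting error only. All 13 mitochondrially encoded mRNAs were tested, 12 were lower in P and none was higher, with a median log2FC of -2.56, and the one not called was MT-ND5. MT-CO2, a subunit of cytochrome c oxidase, was at 4445 and 4954 CPM in T and at 419 and 576 CPM in P (log2FC -3.24 ± 0.30, adjusted p = 5.6e-05, edgeR). MT-CO1, the most abundant of them, was at 12214 and 12513 CPM in T and 1527 and 2575 CPM in P (log2FC -2.59 ± 0.39). Every T value lay far above every P value for both, and for each of them P of culture 81 was higher than P of culture 65. The 2 mitochondrial ribosomal RNAs fell lowest of all lists: MT-RNR2 went from 2888 and 2951 CPM in T to 228 and 270 CPM in P (log2FC -3.55 ± 0.19), and MT-RNR1 had a log2FC of -4.06 ± 0.28. The nuclear copies MTND2P28 (-2.61) and MTATP6P1 (-2.48) had similar values, but they are near-identical to mitochondrial genes and their reads cannot be assigned with certainty.

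Long RNAs without a coding region followed. Among gene types, median loading was -0.63 for 1092 antisense genes (188 lower, 7 higher), -0.57 for 845 lincRNAs (146 lower, 1 higher) and -0.73 for 198 processed transcripts (59 lower, 1 higher), against 0.02 for protein-coding genes. The lower shares were 17.2%, 17.3% and 29.8% in this order, beside 9.66% of all genes and 8.03% of protein-coding genes. Transcribed unprocessed pseudogenes, with close copies elsewhere, had a lower median still (-0.82, 60 of 225 lower, 26.7%). Without T of culture 65, T of culture 81, P of culture 65 and P of culture 81 in turn, the lower antisense genes numbered 67, 91, 95 and 70, the lower lincRNAs 50, 69, 73 and 58, the lower processed transcripts 25, 30, 34 and 28 and the lower transcribed unprocessed pseudogenes 25, 34, 31 and 32. The antisense, lincRNA and processed transcript classes were also less abundant, with a median of 0.59 CPM against 25.2 CPM for protein-coding genes, and loading rose with level over all nuclear protein-coding genes (below). Among the 117 antisense, lincRNA and processed transcript genes of at least 10 CPM, 56 were lower in P and 4 were higher, with a median of -0.61. Of all 9429 genes of at least 10 CPM, 806 were lower and 1003 higher. The library kit named in the labels does not mark strand, so reads of an antisense gene and of the gene it overlaps cannot be told apart.

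Of 7 tested nuclear long non-coding RNAs, 4 were lower in P and none was higher, and the lower ones numbered 2 without T of culture 65 or P of culture 81, 3 without P of culture 65 and 4 without T of culture 81. NEAT1, the scaffold of nuclear paraspeckles, was at 290 and 169 CPM in T and at 55.3 and 50.2 CPM in P (log2FC -2.12 ± 0.32, adjusted p = 0.00099, edgeR). MALAT1, a speckle RNA, had a log2FC of -1.70 ± 0.36, a call that was lost without T of culture 65 or P of culture 81, and PVT1 of -1.43 ± 0.21. MIAT, the remaining lower one, lost its call without any 1 library except T of culture 81. TUG1 was not called, at 89.1 and 92.5 CPM in T against 65.8 and 92.3 CPM in P, where the 2 fractions overlapped. The snoRNA host genes, whose introns carry small nucleolar RNAs and whose spliced products mostly encode no conserved protein, were lower in 18 of 23 tested and higher in none, with a median of -1.17. SNHG6 was at 78.7 and 91.2 CPM in T and at 16.2 and 13.6 CPM in P (log2FC -2.51 ± 0.29). The most abundant hosts fell too, SNHG5 from 271 and 319 CPM to 148 and 124 CPM and GAS5 from 249 and 273 CPM to 110 and 122 CPM. Their calls were lost without the T library of culture 81 and, for SNHG5, without the P library of culture 81 or, for GAS5, without the P library of culture 65. Without any 1 library, the number of lower hosts ranged from 10 to 14.

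**Figure D2:**
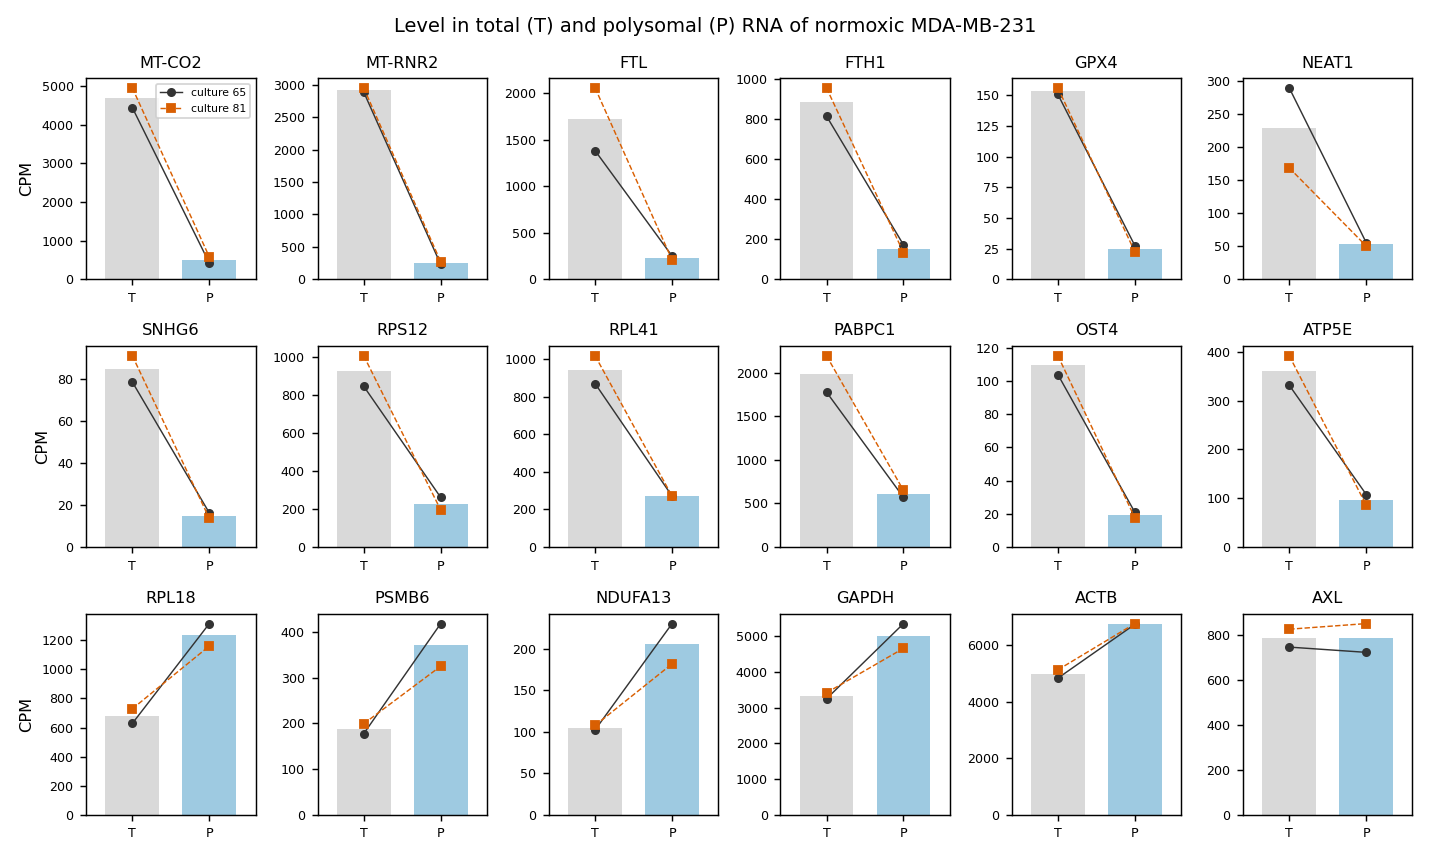
CPM of 18 genes in the T and P libraries of normoxic MDA-MB-231, on linear axes from 0. Bars are the mean of the 2 cultures, black circles culture 65 and orange squares culture 81, with a line joining the 2 libraries of a culture. MT-CO2, FTL, GPX4, NEAT1, RPS12 and OST4 fell in both cultures, RPL18 and PSMB6 rose in both, and AXL was level at 746 and 826 CPM in T and 723 and 851 CPM in P.

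Ferritin mRNAs had the lowest loading of all nuclear protein-coding genes with a mean of at least 300 CPM. The loop of the IRE is shown here because it was the sequence feature shared by 3 of the 4 lower genes of the iron list. The letters CAGTG followed by A, C or T were searched on the sense strand of the 5′ UTR of the GENCODE v44 canonical transcript, with 5 paired bases (G with T allowed) on either side and a C just before the stem. Of 13297 5′ UTRs of tested protein-coding genes, 2468 (18.6%) held CAGTG but 5 (0.0376%) held the whole arrangement. The capitals mark the 6-base loop of 30-base windows that all lie in exon 1, in the 5′ UTR (GRCh38).
FTL, chr19:48965335-48965364, plus strand: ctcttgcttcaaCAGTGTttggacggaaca
FTH1, chr11:61967573-61967602, minus strand: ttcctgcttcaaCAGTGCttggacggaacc
SLC40A1, chr2:189580660-189580689, minus strand: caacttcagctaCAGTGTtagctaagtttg
The other 2 matches, in ADAR and PRPF18, were in genes that were not called (log2FC 0.17 and 0.33). A match is a description of letters and not proof of a hairpin.

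FTL, the ferritin light chain, was at 1380 and 2053 CPM in T and at 249 and 207 CPM in P (log2FC -2.91 ± 0.32, adjusted p = 0.00015, edgeR). FTH1, the heavy chain, was at 815 and 955 CPM in T and at 172 and 133 CPM in P (log2FC -2.54 ± 0.27). Both were more than 4-fold lower in P in each culture, and in culture 81, where T was higher, P was lower. SLC40A1, the iron exporter ferroportin, was a rare mRNA at 2.04 and 2.36 CPM in T and 0.704 and 0.695 CPM in P (log2FC -1.64 ± 0.34). SLC25A37, the mitochondrial iron importer mitoferrin, had no such match and was also lower (log2FC -1.39 ± 0.25). In all, 4 of the 10 genes of the list (40%) were lower, beside 9.66% of all genes, and none was higher. All 4 stayed called when any 1 library was left out. The transferrin receptor TFRC, which carries its IREs in the 3′ UTR, was at 342 and 322 CPM in T and at 311 and 413 CPM in P and was not called. HIF-2α (EPAS1, -0.77 ± 0.38) was not called either.

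Selenoproteins, which need a UGA codon read as selenocysteine, split. Of 18 tested, 5 (27.8%) were lower in P, beside 9.66% of all genes, and none was higher, with a median of -0.44. GPX4, the lipid peroxide reductase that guards against ferroptosis, was at 151 and 156 CPM in T and at 27.4 and 22.3 CPM in P (log2FC -2.63 ± 0.22, adjusted p = 3.3e-05, edgeR). SEPW1 had a log2FC of -2.58 ± 0.29, GPX1 of -1.58 ± 0.25, GPX3 of -1.11 ± 0.14 and SELT of -0.67 ± 0.15, the last of which lost its call without any 1 library except P of culture 81. Thioredoxin reductase 1 (TXNRD1), the most abundant of the list, was at 616 and 636 CPM in T and at 655 and 830 CPM in P, not below it, and was not called. SEP15 was level, at 279 and 295 CPM in T and at 259 and 282 CPM in P.

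Ribosomal protein mRNAs split into members called higher, members called lower and a larger number not called. Of 47 large-subunit genes, 17 (36.2%) were higher in P, 4 (8.51%) were lower and the rest were not called, with a median of 0.51. Of 32 small-subunit genes, 10 (31.2%) were higher and 5 (15.6%) were lower, with a median of 0.52. Of all genes tested, 6.15% were higher and 9.66% lower. In nuclear protein-coding genes of 300 to under 1000 CPM, 30.7% were higher and 4.35% lower, with a median of 0.36. At 1000 CPM and above, 39.4% were higher and 1.83% lower, with a median of 0.49. Summed over both lists, ribosomal protein genes took 7.53% (7.52% to 7.54%) and 8.45% (8.43% to 8.46%) of the counts of T and 10.2% (10.2% to 10.2%) and 9.12% (9.11% to 9.13%) of P, so the gain was smaller in culture 81. The median of the large subunit was 0.69 in culture 65 and 0.31 in culture 81. Calls of the higher members were few when a library was left out: they numbered 1 and 1 for the large and the small subunit without P of culture 65, 0 and 1 without T of culture 65, 6 and 3 without T of culture 81 and 12 and 10 without P of culture 81. With the culture number as a block, a fit that compares T and P within a culture, they numbered 11 and 5. Some other settings gave more, 20 and 15 with the replicate number as a block or with RLE, 29 and 18 with DESeq2, 33 and 21 with the length offset and 35 and 22 with at least 1 read as the filter. Others gave fewer than the 17 and 10 above, 13 and 7 with upper-quartile scaling and 10 and 5 with protein-coding genes only. The lower members numbered 4 and 1 without P of culture 65, 4 and 4 without T of culture 65, 2 and 1 without T of culture 81 and 3 and 4 without P of culture 81.

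RPL18 rose from 628 and 729 CPM in T to 1314 and 1160 CPM in P (log2FC 0.87 ± 0.17, adjusted p = 0.0046, edgeR). FAU, which encodes RPS30 fused to a ubiquitin-like protein, had the highest loading of the 79 genes (0.93 ± 0.19). RPL8, the most abundant, rose from 1979 and 2323 CPM to 3509 and 3172 CPM, while RPS18 (0.44, adjusted p = 0.096) and RPS3A (0.47, adjusted p = 0.12) did not pass the test. RPS12 went the other way, from 845 and 1006 CPM in T to 261 and 195 CPM in P (log2FC -2.02 ± 0.21, adjusted p = 0.00011, edgeR). Both P values of RPS12 lay far below both T values. RPL41, with a coding region of 25 codons, fell from 871 and 1019 CPM to 271 and 271 CPM (log2FC -1.80 ± 0.29). RPLP1, a stalk protein, fell from 908 and 1083 CPM to 455 and 317 CPM (log2FC -1.37 ± 0.20), its partner RPLP0 had a log2FC of -0.95 and the neighbouring RPL12 of -0.81, while RPLP2 was at 0.02 and was not called. The other lower members were RPS29 (-0.96), RPS28 (-0.94), RPS21 (-0.83) and RPS27 (-0.71), with 56, 69, 83 and 84 codons. RPS12, RPL41 and RPLP1 stayed called without any 1 library, whereas RPS29, RPS28 and RPS21 lost their call without T of culture 81 or P of culture 65, RPLP0 without T of culture 81, RPL12 without either library of culture 81, and RPS27 without any 1 of the 4. Of the higher members, RPL18 lost its call without T of culture 65, and FAU and RPL8 without either library of culture 65.

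The start of the transcript is shown for 4 lower and 4 higher genes that hold the pyrimidine run of TOP mRNAs, since both directions occurred among such starts. They were picked after their values and starts were seen. RefSeq promoter entries (GRCh38.p14) were matched for 38 of the 47 large-subunit and 25 of the 32 small-subunit genes. The windows run from 10 bases before to 16 bases from the annotated start, 5′ to 3′ on the gene's strand, and capitals mark a run that opens with C, goes on with at least 4 further C or T letters and begins within 5 bases of the start. Such a run was present in 31 and 20 of the matched genes (81.6% of the large-subunit genes), against 21.1% of all 27305 promoters. The first 4 were lower in P and the last 4 higher.
RPS12, chr6:132814559-132814584, plus strand: cggatgaggCCTCTTTCCCTgccgcc
RPLP1, chr15:69452808-69452833, plus strand: ggcgcgagagCCCCTTTCCTCagctg
RPLP0, chr12:120201096-120201121, minus strand: ggcgcgaggCCCTTCTCTCgccaggc
RPL41, chr12:56116623-56116648, plus strand: cttcgCCTTTCTCTCggccttagcgc
FAU, chr11:65122119-65122144, minus strand: tcgcttCTTCCTCTTTCTCgactcca
RPL18, chr19:48619163-48619188, minus strand: agcccgttCTCTCTTTCCggacctgg
RPL14, chr3:40457329-40457354, plus strand: ggtcttCTTCCTTCTCgcctaacgcc
RPL24, chr3:101686703-101686728, minus strand: atgattCTCTCTTTCTTTTCgccatc
Pyrimidines also stand just before the capitals in FAU, RPL18, RPL14 and RPL24, so the capitals do not give the whole length of the run there. Among the genes looked up but not shown, RPL12 (lower) had such a run, and neither RPS29 (lower) nor RPS15 (higher) had one at its annotated start.

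The rest of the translation machinery gave smaller differences. Its counts stand beside 6.15% of all genes higher and 9.66% lower. Among 23 further TOP mRNAs, 7 were higher and 1 was lower (2 higher with the culture number as a block), and the higher ones numbered 0 without either library of culture 65, 2 without T of culture 81 and 7 without P of culture 81. The lower one was PABPC1, the poly(A)-binding protein, at 1779 and 2197 CPM in T and 570 and 650 CPM in P (log2FC -1.70 ± 0.21, adjusted p = 0.0003, edgeR). EEF1A1, at 11977 and 12418 CPM in T and 13705 and 13258 CPM in P, was not called (0.14 ± 0.14). Of 41 initiation factor genes, 15 were higher (6 with the culture block) and 2 were lower, and the 2 lower ones were EIF4EBP2 (-1.11 ± 0.22) and EIF4EBP1 (-0.80 ± 0.19), which encode inhibitors of the cap-binding factor and not initiation factors proper. EIF3K, a subunit of eIF3, rose from 160 and 168 CPM to 341 and 259 CPM (0.87 ± 0.17), and EIF4A1, the helicase, from 1656 and 1701 CPM to 2539 and 2243 CPM, whereas EIF4G2 was at -0.02 ± 0.16. The higher members numbered 0 without T of culture 65, 1 without P of culture 65, 6 without T of culture 81 and 9 without P of culture 81. The call of EIF4EBP2 was lost without the P library of culture 65, that of EIF4EBP1 without either library of culture 81, that of EIF3K without either library of culture 65, and that of EIF4A1 with the culture block and on leaving out any library except P of culture 81. Cytosolic tRNA synthetases were higher in 4 of 20 and lower in none (median 0.16), with 1 called with the culture block and none once any 1 library was left out.

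Nuclear genes for mitochondria and the proteasome had many members called higher. Of 37 tested proteasome subunits, 25 (67.6%) were higher and none was lower, with a median of 0.58 and every member above 0. PSMB6, a catalytic subunit, rose from 177 and 199 CPM in T to 418 and 325 CPM in P (log2FC 0.98 ± 0.18, adjusted p = 0.0034, edgeR). The 76 nuclear-encoded respiratory chain subunits had 35 (46.1%) higher, 7 (9.21%) lower and a median of 0.53. The 77 mitochondrial ribosomal proteins had 33 (42.9%) higher, 3 (3.9%) lower and a median of 0.46. Of all genes tested, 6.15% were higher and 9.66% lower. Nuclear protein-coding genes of 200 to under 300 codons and at least 10 CPM were 26.2% higher and 8.64% lower, with a median of 0.28. NDUFA13 of complex I rose from 102.2 and 107.6 CPM to 230 and 182 CPM (0.97 ± 0.19) and MRPL28 from 51.3 and 55.7 CPM to 110 and 91.2 CPM (0.91 ± 0.15). With the culture block the higher members were 19 proteasome subunits, 20 respiratory chain subunits and 20 mitochondrial ribosomal proteins. In each of the genes named the gain was larger in culture 65. Without the P library of culture 65 the higher members numbered 3, 2 and 4 of the 3 lists in the same order, and without the T library of culture 65 they numbered 2, 1 and 3, while PSMB6, NDUFA13 and MRPL28 stayed called without any 1 library. The lower mitochondrial ribosomal proteins numbered 2 and 1 without T of cultures 65 and 81 and 3 and 2 without P of cultures 65 and 81. The lower respiratory chain members numbered 4 and 3 without T of cultures 65 and 81 and 6 and 3 without P of cultures 65 and 81. The respiratory chain mRNAs of the nucleus thus had a median of 0.53 beside -2.56 for the mRNAs of the mitochondrial genome.

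Other housekeeping lists had smaller medians above 0. Glycolytic enzymes were higher in 6 of 22 (median 0.38), among them TPI1 from 645 and 730 CPM to 1257 and 1083 CPM (0.77 ± 0.14), GAPDH (0.59 ± 0.14), ENO1 (0.44 ± 0.13) and SLC16A3 (0.61 ± 0.17), a lactate transporter on that list and not an enzyme. Actins, tubulins and their partners were higher in 11 of 29 and lower in 1, the tropomyosin TPM2 (median 0.42), with ACTB going from 4841 and 5135 CPM to 6748 and 6772 CPM (0.44 ± 0.13), and MYL6 and MYL12B at 0.91 and 0.81. Endoplasmic reticulum chaperones were higher in 7 of 22 (4 with the culture block, median 0.32), led by PPIB (0.82 ± 0.16), and sterol and fatty acid enzymes in 4 of 30 (median 0.29), led by FADS2 (0.75 ± 0.17). DNA replication genes were higher in 6 of 36 (median 0.18), with PCNA at 0.62 and RPA2 at 0.68, hnRNP genes in 2 of 21 (0.28), the CCT chaperonin and heat shock list in 2 of 21 (0.33) and mitotic genes in 2 of 29 (0.03), beside 6.15% of all genes, and the median of the mitotic genes turned negative with library totals and with protein-coding genes only. The higher members of these last 3 lists depended on the setting, at 8, 7 and 5 with DESeq2 and 7, 10 and 5 with the length offset. With protein-coding genes only they numbered 1, 1 and 0. The lists named before them moved too. With DESeq2, 11 glycolytic enzymes, 16 actins and partners, 9 chaperones, 7 sterol enzymes and 9 DNA replication genes were higher. With protein-coding genes only these numbered 5, 7, 4, 2 and 3 in the same order. None of these lists but the actins had a lower member, and TPM2 lost its call without T of culture 65 or P of culture 81. Without 1 library, the higher members ranged from 1 to 5 among glycolytic enzymes, from 0 to 6 among actins and partners and among the chaperones of the endoplasmic reticulum, from 0 to 3 among sterol enzymes and among DNA replication genes, from 0 to 2 among hnRNP genes, from 0 to 1 in the CCT and heat shock list, and no mitotic gene was called. Among the genes named here, only TPI1 kept its call whichever library was left out. ACTB and ENO1 lost it without any 1 of the 4 libraries, GAPDH, MYL6, MYL12B and RPA2 without either library of culture 65, PPIB without P of culture 65, FADS2 without T of culture 65 or P of culture 81, and SLC16A3 and PCNA without any but P of culture 81. With the culture block PCNA was not called.

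Lists tied to signalling and the cell surface stood near 0, as the bulk of the mRNA did. Of all genes tested, 6.15% were higher and 9.66% lower. Integrin subunits had 1 lower of 14 tested, receptor tyrosine kinases 1 lower of 22 (RYK), immediate early genes 1 lower of 26 (ZFP36), collagens and laminins none called of 32, the polyamine pathway 2 higher of 10 (0 higher and 2 lower with the culture block), and the S100 and metallothionein list 1 lower of 14 (S100A16). Their medians lay between -0.13 and 0.19, and each changed sign under at least 1 other setting of the scaling, filter or libraries. The single calls in the kinase and immediate early lists and both polyamine calls were lost without any 1 library, and that of S100A16 without any 1 except P of culture 65, and the calls in the kinase, immediate early and S100 lists were lost with RLE scaling. ITGB1 was at 1255 and 987 CPM in T and 1368 and 1239 CPM in P, ITGB3 at 2.29 and 1.82 CPM in T and 1.19 and 1.93 CPM in P, and AXL was level. ITGAE, at 42 and 47.9 CPM in T and 13.6 and 11.1 CPM in P, was lower (log2FC -1.86 ± 0.23), though another gene lies within one of its introns and, without strand, reads of the 2 cannot be told apart. Among mRNAs with upstream open reading frames that respond to stress, none of 12 was called. ATF4 was at 446 and 573 CPM in T and at 375 and 379 CPM in P (-0.44, adjusted p = 0.12). PPP1R15A was at 0.07.

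Splicing kinases and SR factors were lower in 4 of 17 tested (23.5%, beside 9.66% of all genes), SRSF10 (-0.86 ± 0.18), CLK4 (-0.73 ± 0.20), CLK1 and SRSF11, whereas SRSF3 (0.42) and SRSF1 (0.48) were not called. The median of -0.05 turned positive with RLE, DESeq2, the length offset and at least 1 read as the filter. Members were called higher in some settings, 3 with each of the last 3 of these, 2 with RLE or the replicate number as a block and 1 with thinned libraries. The call of SRSF10 was lost without T of culture 65 or P of culture 81, and those of CLK4, CLK1 and SRSF11 without any 1 library. Zinc finger genes of the ZNF series, which encode DNA-binding proteins, were lower in 89 of 452 tested (19.7%) and higher in none, with a median of -0.31. Without any 1 library the lower members numbered between 32 (without T of culture 81) and 41 (without P of culture 65), with 35 without T of culture 65 and 38 without P of culture 81. They were less abundant than most coding genes, with a median of 9.2 CPM against 25.2 CPM, and among the 216 members of at least 10 CPM the median was -0.22 with 36 lower. ZNF358 fell from 38.2 and 51.1 CPM to 16.8 and 15.7 CPM, and ZNF224 from 42.4 and 29.1 CPM to 15.3 and 10.9 CPM, while the abundant ZNF207 and ZNF146 were at 0.05. Of the replication-dependent histones, whose main mRNAs lack the poly(A) tail that these libraries select, 36 of 71 were tested. Of these, 3 (8.33%) were higher and 1 (2.78%) was lower, beside 6.15% and 9.66% of all genes, and 5 and 0 with the culture block. HIST1H1C was at 24.1 and 26.3 CPM in T and 55.3 and 42.5 CPM in P (0.96 ± 0.24). Its call stood only without P of culture 81, where 2 histones were higher and none was lower, and no histone was called in either direction without any 1 of the other libraries.

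Loading went with coding length, and not in 1 direction. Of the 48 nuclear protein-coding genes under 70 codons and of at least 10 CPM, 32 were lower in P, none was higher and 16 were not called, with a median of -0.775. OST4, a 37-codon subunit of the oligosaccharyltransferase, fell from 103.8 and 115.1 CPM in T to 20.9 and 17.6 CPM in P (log2FC -2.51 ± 0.19, adjusted p = 1.4e-05, edgeR). ATP5E, the 51-codon epsilon subunit of ATP synthase, fell from 331 and 391.6 CPM to 107.5 and 85.7 CPM (-1.90 ± 0.21), and UQCR11, of 56 codons, from 55.5 and 54.1 CPM to 18.2 and 12.3 CPM (-1.85 ± 0.20). Short coding regions were not low without exception. MT2A, a metallothionein of 61 codons, was at 1300 and 1259 CPM in T and 1419 and 1595 CPM in P (0.24 ± 0.14, not called), RPL39 of 51 codons was at 0.22 and the thymosins TMSB10 and TMSB4X of 44 codons were at -0.36 and -0.39, not called. OST4, MT2A, RPL39 and the thymosins were picked after their values were seen.

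Within a function the same order held as a description. The 9 cytosolic ribosomal proteins under 100 codons had a median of -0.71 with 5 lower and none higher, and the 70 longer ones a median of 0.53 with 27 higher and 4 lower. Respiratory chain subunits under 100 codons had a median of -0.235 with 7 of 20 lower and 2 higher, and the 56 longer ones 0.56 with none lower. Of 3 short mitochondrial ribosomal proteins 2 were lower, MRPL34, whose call stood only without P of culture 65 when a library was left out, and MRPL33 of 65 codons, called without any 1 library, from 75.9 and 77.9 CPM to 37.9 and 35.9 CPM (-1.06 ± 0.16), against 1 of 74 longer ones. The 100-codon limit was set after the values were seen.

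**Figure D3:**
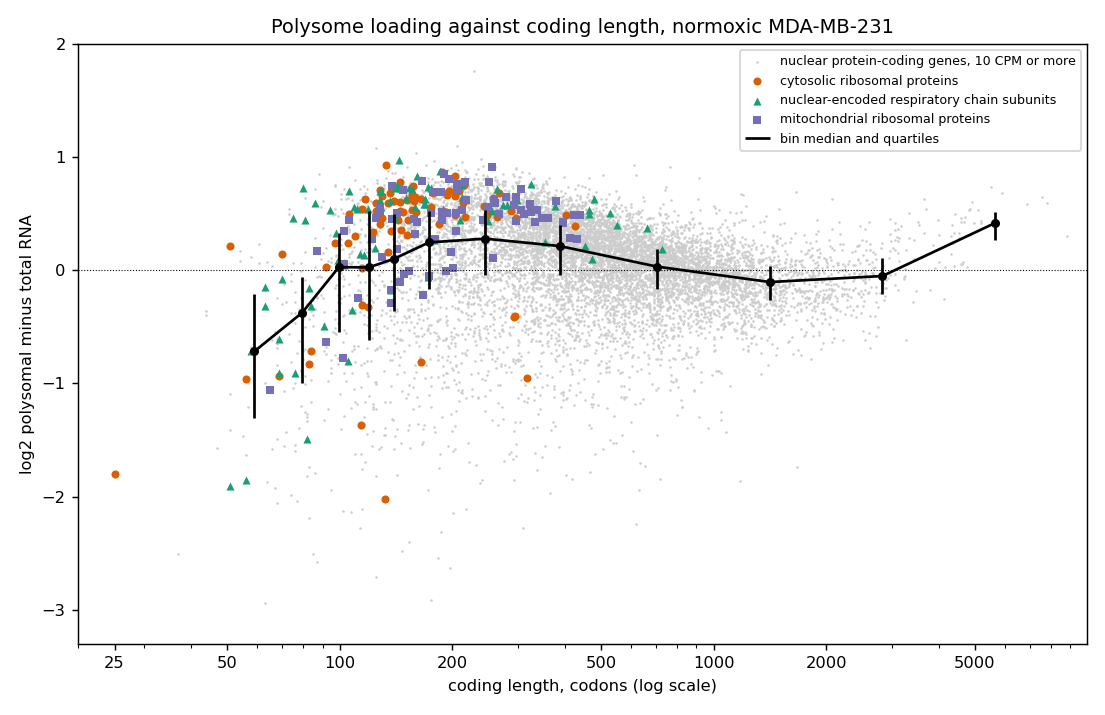
Polysome loading against coding length, on a log axis, for nuclear protein-coding genes of at least 10 CPM in normoxic MDA-MB-231. Grey points are genes, coloured points are members of 3 lists, and the black line and bars are the median and quartiles of bins of coding length holding at least 20 genes. The median rises from -0.72 at 50 to under 70 codons to 0.28 at 200 to under 300 codons and falls to -0.10 at 1000 to under 2000 codons, then stands at -0.05 at 2000 to under 4000 codons and at 0.42 in the 35 genes of 4000 codons or more, and 1 gene lies outside the drawn range.

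Over all 13365 nuclear protein-coding genes with a length, the median was -0.30 in the 14 genes under 50 codons (4 lower), a thinly filled bin, and rose from -0.70 at 50 to under 70 codons (32 of 68 lower) and -0.45 at 70 to under 90 codons (50 of 131 lower) to 0.20 at 200 to under 300 codons. There 340 of 1805 genes (18.8%) were higher and 158 (8.75%) lower. It then fell to -0.02 at 500 to under 1000 codons and -0.15 at 1000 to under 2000 codons, where 2 of 1551 genes (0.129%) were higher. Both cultures were low at 50 to under 70 codons, with medians of -0.70 in culture 65 and -0.75 in culture 81, but at 1000 to under 2000 codons the medians were -0.28 and 0.003. At 4000 codons and above the order of the cultures was the opposite, with 0.44 in culture 65 and -0.17 in culture 81, and the median of the 73 genes was 0.06. The 5′ UTR moved in one direction: the median was 0.17 in genes with under 25 bases, with 15.7% higher, and -0.07 with 400 to under 800 bases, with 1.3% higher. Across genes, Spearman's rho of loading was -0.175 with 5′ UTR length, -0.082 with 3′ UTR length and 0.362 with mean CPM, where the points share the same 4 libraries. By level, the median went from -0.49 below 1 CPM to 0.49 at 1000 CPM and above, where 39.4% of genes were higher and 1.83% lower.

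The 8 protein-coding genes of largest loading and at least 10 CPM were a mixed group. SLX1B, a nuclease subunit, was at 0.282 and 2.14 CPM in T and 33.9 and 22.4 CPM in P (log2FC 4.68 ± 1.10), but SLX1A is a near-identical copy and the division of reads between the 2 is uncertain. RPL17-C18orf32 (1.76) is a readthrough gene that shares exons with RPL17 and is uncertain for the same reason. BLVRB, biliverdin reductase B, rose from 18.7 and 16.7 CPM to 46 and 30 CPM (1.10 ± 0.22), SFT2D2 from 16.2 and 21.2 CPM to 37.6 and 39.1 CPM (1.04 ± 0.30) and SCAND1 from 57.3 and 60.8 CPM to 132 and 98.3 CPM (0.96 ± 0.19), beside PSMB6, NDUFA13 and HIST1H1C. SLX1B lost its call without either library of culture 65, SFT2D2 without any 1 library, and BLVRB and SCAND1 without P of culture 65. At the other end, besides mitochondrial genes, FTL and GPX4, stood C12orf75, of 63 codons, from 150 and 213 CPM to 21.5 and 25.6 CPM (-2.94 ± 0.36), and BRI3, a membrane protein of 125 codons, from 63.6 and 72.7 CPM to 11.1 and 9.73 CPM (-2.71 ± 0.23). Both kept their call without any 1 library. Among the non-coding genes called higher at 10 CPM or more, the 5 with the highest loading were of 2 types. ITGB1P1, H3F3AP4 and PPIAP22 are processed pseudogenes with close copies that are translated, and RP11-138I1.4 (0.96 ± 0.20) and RP11-161H23.5 (0.88 ± 0.28) are annotated as antisense. With the culture block PPIAP22 and RP11-161H23.5 were not called. H3F3AP4, PPIAP22 and RP11-161H23.5 lost their call without any 1 library except P of culture 81, ITGB1P1 without T of culture 81 or P of culture 65, and RP11-138I1.4 without P of culture 65. Of 535 processed pseudogenes, 11 (2.06%) were higher and 18 (3.36%) lower, both below the shares of all genes, and the higher ones numbered 1, 0, 0 and 9 and the lower ones 9, 5, 12 and 7 without T of culture 65, T of culture 81, P of culture 65 and P of culture 81. Ribosomal protein pseudogenes, of which 88 of 1016 were tested, had a median of 0.32 with 4 lower and none higher, a median that ran from -0.15 to 0.58 over the other settings and was negative without P of culture 65 and with at least 1 read as the filter. The lower ones numbered 1 or 2 without 1 library, and their reads too are shared with the parent genes.

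Loading in the same line under hypoxia, read from other libraries, gave nearly the same order. Spearman's rho between N and H was 0.901 over the 9429 genes of at least 10 CPM, in libraries that share the cell line and the preparation. FTL was at -2.83 in H and -2.91 in N, NEAT1 at -2.13 and -2.12, RPS12 at -1.57 and -2.02, PSMB6 at 0.77 and 0.98 and OST4 at -1.77 and -2.51. Mitochondrial mRNAs had a median of -3.21 in H and -2.56 in N. The ribosomal protein lists were at 0.35 and 0.34 in H against 0.51 and 0.52 in N. These differences were not tested here.

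Between the lines, the difference in normoxic loading itself was tested in a joint fit of all 32 libraries. Of 18670 genes, none (0%) was higher in MDA-MB-231 and 1 (0.00536%) was lower by edgeR at an adjusted p below 0.05, where 386 had an unadjusted p below 0.05, and DESeq2 called 4. The one gene was CHMP4C, of the ESCRT machinery, at 2.53 and 3.34 CPM in T and 0.85 and 0.70 CPM in P of MDA-MB-231, against 13.1 and 10.9 CPM in T and 14.6 and 14.2 CPM in P of MCF10A. It lies below the 10 CPM asked of the genes named by rule and was picked after its value was seen, and no gene was called without any 1 of 7 of the 8 libraries compared. A missed threshold does not show that loading was alike. On the joint scale the median of the proteasome list was 0.63 in MDA-MB-231 and 0.90 in MCF10A, of the respiratory chain subunits 0.58 and 0.85, of the mitochondrial mRNAs -2.49 and -2.72, of the snoRNA hosts -1.13 and -1.65 and of the large-subunit ribosomal proteins 0.57 and 0.48. All of these lists leaned the same way in both lines.

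**Figure D4:**
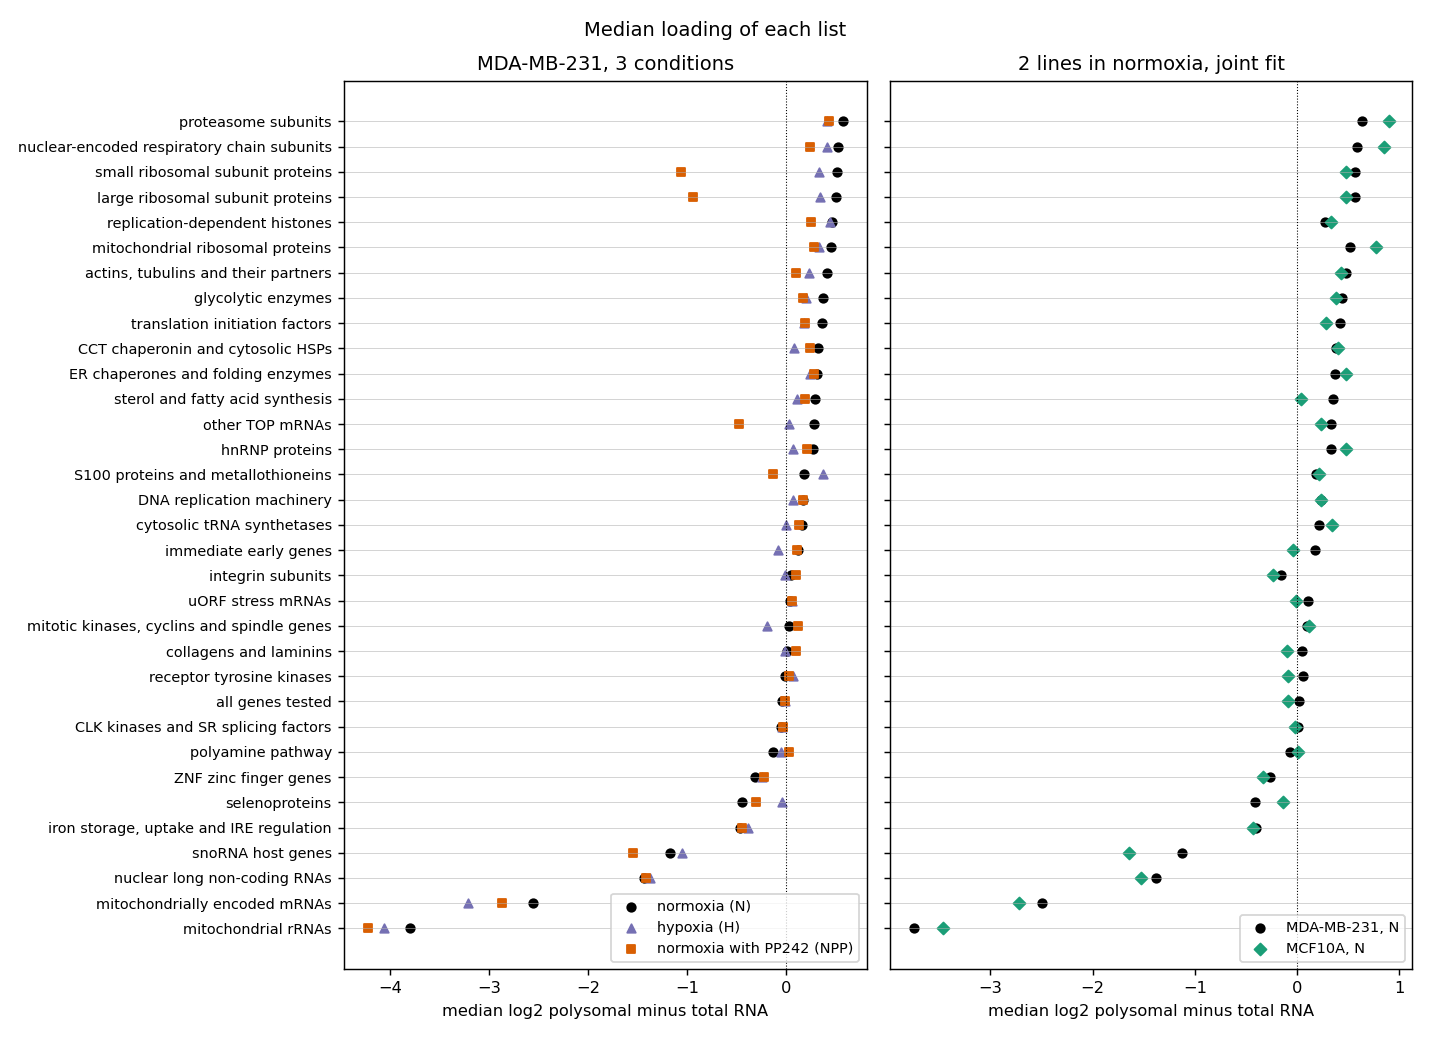
Median log2 P minus T of each list, left in MDA-MB-231 under normoxia (black circles), hypoxia (triangles) and normoxia with PP242 (squares), right in MDA-MB-231 (black circles) and MCF10A (diamonds) in normoxia from the joint fit. The ribosomal protein lists lie at 0.51 and 0.52 in N and at -0.94 and -1.06 in NPP. The lists of mitochondrially encoded mRNAs, mitochondrial rRNAs and snoRNA host genes stay low in every condition and line drawn.

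Under PP242 the loading of ribosomal protein mRNAs was lower, by a test that the fit with culture as a block mostly did not pass. Loading was lower in NPP than in N for 78 genes (0.459% of those tested) and higher for none (0%), where 505 genes had an unadjusted p below 0.05 in either direction and DESeq2 called 117. Of those 78, 31 were large-subunit and 25 small-subunit ribosomal proteins and 6 were on the list of other TOP mRNAs. RPL13A was at 1379 and 1594 CPM in T and 2144 and 2034 CPM in P of N, and at 1608 and 2048 CPM in T and 538 and 691 CPM in P of NPP, a difference in log2FC of -2.06 ± 0.25 (adjusted p = 0.0032, edgeR). With the culture number as a block, 4 genes were called, RPL13A (adjusted p = 0.0352), SPANXA1, NDUFC2-KCTD14 and AC007192.4. Of these, NDUFC2-KCTD14 and AC007192.4 were picked after their values were seen. RPL13A, SPANXA1 and NDUFC2-KCTD14 were lower in NPP and among the 78. AC007192.4 was not among the 78, was higher in NPP and lay below 2 CPM in every N and NPP library. All 78 kept their direction in that fit, with a median difference of -1.48 against -1.49. RPS12, already low in N, had a difference of -0.87 ± 0.28 that was not called (adjusted p = 0.76). No member of the lists of mitochondrial, respiratory chain, proteasome or snoRNA host genes was called for this difference, whose 4 N libraries are those of the loading itself. Without 1 of the 8 libraries the count lay between 13 (without the P library of culture 67) and 71 (without the P library of culture 81), with 20 and 22 without T of cultures 65 and 81, 17 without P of culture 65, 50 and 17 without T of cultures 67 and 83 and 27 without P of culture 83.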

How the data were processed

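Poly(A)-selected RNA from total and polysomal fractions was sequenced on an Illumina instrument. The authors aligned reads with STAR and estimated counts per gene with RSEM; they deposited expected counts for 60554 genes, which were rounded to whole numbers here. The study's methods name GRCh38 and the submitters' processing notes GRCh37, so deposited coordinates were not printed. The kit (TruSeq RNA v2) does not mark strand, and RSEM was run with default parameters. All columns matched a sample (0 did not).

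The 16 MDA-MB-231 libraries were fitted together with edgeR 4.0.16 (TMM, filterByExpr, quasi-likelihood test, Benjamini-Hochberg adjustment over all genes tested, R 4.3.3). The difference between lines used all 32 libraries, and DESeq2 1.42.0 was an alternative. In data simulated for the P against T comparison of 16769 genes, the fit recovered 66% of 2-fold and 10% of 1.5-fold increases and 52% of 2-fold decreases, with 3 false calls. Named genes were called genes of at least 10 CPM with the largest changes by gene type (8 protein-coding and 5 other in each direction) and, in each list, the 2 most abundant and 2 most changed members; others are given as list members or as picked after their values were seen. The lists and the comparison were chosen with earlier results of these data known. Alternatives were other scalings, filters, gene types, blocks, a length offset, thinning and leaving out each library. Replicate libraries differed by more than sampling noise.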

Additional observations from a re-analysis of the deposited data

Results flagged for a closer look

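The loading of CHMP4C differed between the lines in the joint test, with MDA-MB-231 minus MCF10A at -2.18. It was low in count, and no gene was called for this difference without any 1 of 7 of the 8 libraries compared.

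Loading differed between NPP and N of MDA-MB-231 for 78 genes by the test of the difference itself, and the 13 of them that were chosen by rule, by their loading in N or by the size of this difference at 10 CPM or more, are given here. With the culture number as a block, 3 of the 78 genes called for this difference stayed called, RPL13A and SPANXA1 among those named here. Among ribosomal protein mRNAs the NPP minus N differences were -2.07 for RPS19, -2.06 for RPL13A, -1.96 for RPL39, -1.91 for RPS18, -1.80 for RPS3A, -1.64 for RPS29 and -1.47 for RPL7A. The elongation factors EEF1A1 and EEF1D had differences of -1.52 and -1.16 and the glycolytic enzyme GAPDH of -0.99. The pseudogenes RPL13AP5 (-2.16) and RPL9P9 (-1.55) share reads with their parent genes and are uncertain. SPANXA1, a cancer-testis gene with near-identical copies and also uncertain, had a difference of -6.37, the largest among the called genes of at least 10 CPM, at 18.1 and 18.5 CPM in P of N and 0.0857 and 0.422 CPM in P of NPP.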

How the results depend on the processing

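None of the 83 called genes that the rule on named genes chose changed direction under an alternative that gave it a value, which their choice on the same libraries largely fixes. The higher genes numbered 1682 at an adjusted p below 0.10, 1928 with at least 1 read as the filter, 1997 with a transcript-length offset, 1793 with DESeq2 and 597 with protein-coding genes only. With an absolute log2FC of at least 1 required, 25 were higher and 1011 lower. Without 1 library, the higher genes ranged from 78 to 7.8e+02 and the lower from 695 to 835. The difference between lines called 2 genes with library totals, 58 with at least 1 read, 0 with thinned libraries, 4 with DESeq2 and 0 to 5 without 1 library. The difference under PP242 called 51 genes with upper-quartile scaling, 243 with at least 1 read, 46 with protein-coding genes only, 117 with DESeq2 and 13 to 71 without 1 library. The cause was not tested. With the replicate number as a block, 1332 genes were higher, 1933 lower, 82 differed under PP242 and 2 between lines. With the culture number as a block, the counts were 868, 1762 and 4 under PP242. The deviations of T and P libraries of the same culture had a correlation of 0.121 in N, 0.0177 in H, 0.258 in NPP and 0.0653 with both treatments. Titles share the number between T and P, but not every pair passed 0.1, so both fits are given. With libraries thinned to the smallest, 943 genes were higher and 1529 lower.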
